A study of Mus musculus with 2 samples.

Results

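The genes of cholesterol and fatty acid metabolism were read on 2 arrays: 1 of PGK12.1 cells after 15 days of differentiation as embryoid bodies and 1 of the same line undifferentiated, at day 0. PGK12.1 is a female mouse embryonic stem cell line from blastocysts of a 129 female and a (129 X PGK)F1 male, and both samples came from passages 14 to 18. The stem cells had been kept with leukemia inhibitory factor on embryonic fibroblast feeders, and feeders were depleted on gelatin before collection or differentiation. The 45 genes were listed by function: 16 of sterol synthesis, 10 of fatty acid synthesis, 5 of lipid uptake, binding and efflux, 7 of fatty acid oxidation and 7 regulators. Each was represented by the probe set that names it alone and had the highest mean log2(signal + 16) over both arrays. All 45 were among the 18193 genes measured, and 42 were among the 11960 genes that passed a filter on dim genes, set at the median over probe sets and equal to a signal of about 36.5. Each of the 42 was measurable on both arrays, with lowest signals of 148 at day 15 (Ppard) and 95.7 in undifferentiated cells (Hsd17b7).

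Cells make cholesterol from acetyl-CoA through mevalonate, isoprenoid units, squalene and lanosterol, and make fatty acids from the same acetyl-CoA by chain building, elongation and desaturation. The membrane-bound factors SREBP1 and SREBP2, genes Srebf1 and Srebf2, switch on both routes. When sterol is low, SCAP carries them from the endoplasmic reticulum to the Golgi to be cut free, and INSIG proteins hold them back when sterol is high. In the nucleus SREBPs bind sterol response elements, usually together with NF-Y at a CCAAT box or Sp1 at a GC box. Dividing cells need both for new membranes, while uptake, storage and oxidation genes are best known from muscle, fat, liver and macrophages.

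At day 15, 10 of the 42 genes (23.8%) were higher by 2-fold or more, and 1 (2.38%) was lower by that much. Among all 11960 genes there, the shares were 16.5% and 8.41%. A gene was called past 2-fold where log2(signal + 16) differed by at least 1, and within 2-fold otherwise. Every log2 difference below is day 15 minus undifferentiated on that scale. Folds are ratios of the signals, so a gene called within 2-fold can have a ratio slightly above 2, as for Acadvl (2.01) and Sc5d (2.04). The higher genes were Cyp51, Hsd17b7, Scd1, Scd2, Elovl1, Fads1, Lpl, Fabp5, Insig1 and Insig2, and the lower gene was Ebp. With 1 array for each condition no test between conditions was possible, and no value has a replicate error. When the arrays were scaled instead on the bacterial hybridization controls, which moved the median of all genes by -0.36, the split was 5 higher and 2 lower genes, and 11.3% and 18.8% of all genes.

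**Figure D1:**
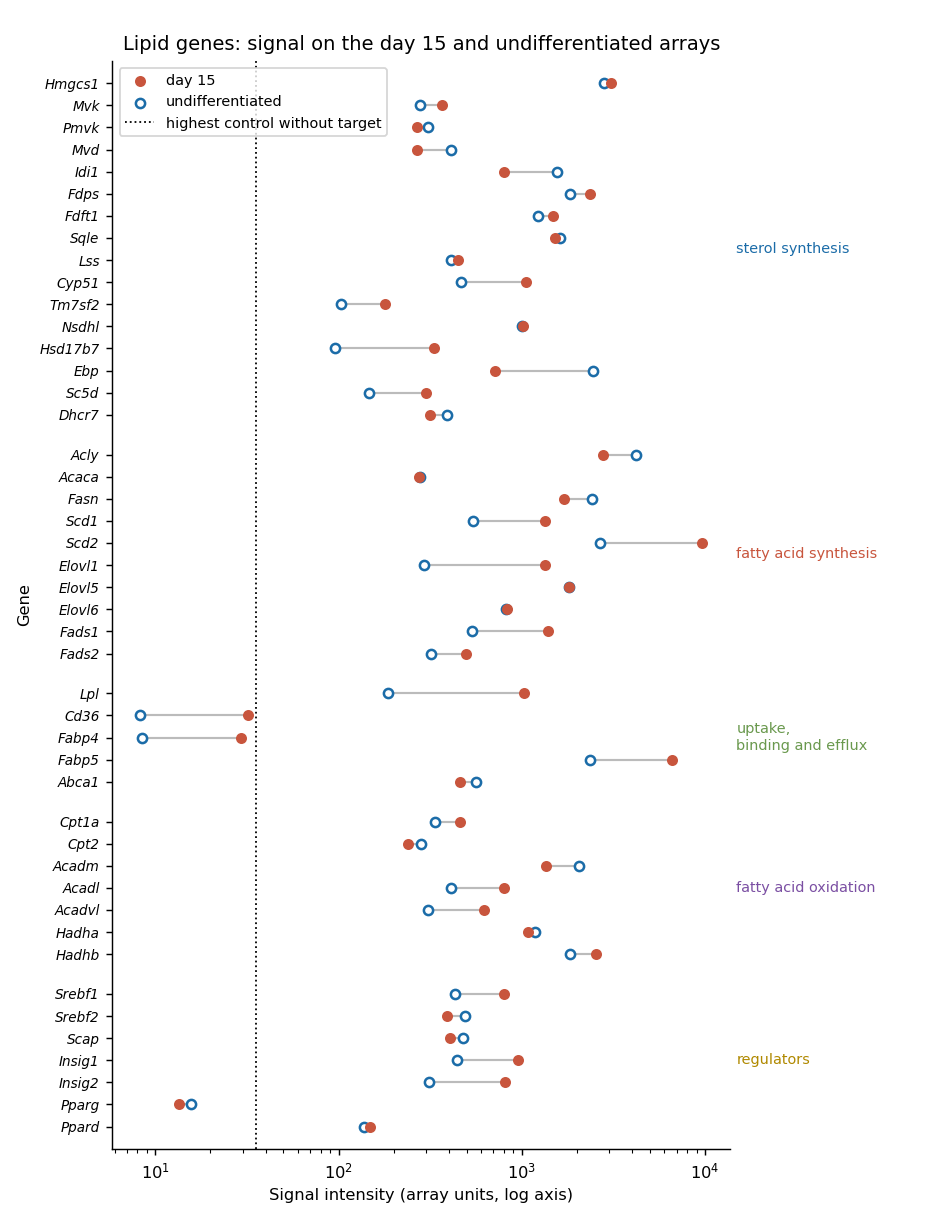
Signal of the 45 genes on each array, by route, on a log axis, with day 15 as filled points and undifferentiated cells as open points. The dotted line is the highest control without target (35.6), and Cd36, Fabp4 and Pparg lie below it on both arrays. Signals of different genes come from different probes and are not compared.

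All values rest on 1 array per condition, and the trimmed mean signal was 250 on both arrays. Between probe sets that name 1 gene, the log2 difference varied with an SD of 0.53 (5157 genes with several probe sets past the filter). Between the 18 hybridization controls it varied with an SD of 0.11. The 15 bacterial control probe sets without target reached at most 35.6, which is used below as the bound of a measurable signal. Among the stem cell markers, Pou5f1 measured 2932 at day 15 against 7838 undifferentiated, so its transcript was still bright in the differentiated culture. Of 7 pluripotency markers 4 were at least 2-fold lower, with a summed signal of 28234 at day 15 and 49871.5 undifferentiated. Of 7 fibroblast markers 6 were at least 2-fold higher, with a summed signal of 29231 at day 15 and 293 undifferentiated. The part of this change in cell types in the lipid gene values was not tested, and in bulk RNA fewer cells of a type and less RNA per cell cannot be told apart.

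Promoter sequences bear on the factors just named, so 5 windows are shown, each 300 bases long, from 250 bases before to 50 after the RefSeq start in GRCm38.p6. Capitals mark the searched motifs on either strand: the sterol response element core TCACNCCAC, the NF-Y box CCAAT, the GC box GGGCGG and the E-box CACGTG, which is its own reverse complement. No motifs overlapped in these windows. Hmgcs1 is shown because it alone among the 36 genes with a window held the sterol response element core, Insig1 and Cyp51 as higher genes, Ebp as the lower gene, and Hadhb for the start region it shares with Hadha.
Hmgcs1, chr13:119690101-119690400, plus strand: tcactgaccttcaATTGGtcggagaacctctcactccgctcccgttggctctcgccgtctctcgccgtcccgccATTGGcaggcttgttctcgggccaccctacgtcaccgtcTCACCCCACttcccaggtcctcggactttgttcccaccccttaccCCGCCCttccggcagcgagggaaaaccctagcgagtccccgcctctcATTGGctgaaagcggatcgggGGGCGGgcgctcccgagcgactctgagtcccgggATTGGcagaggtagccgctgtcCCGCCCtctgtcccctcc
Insig1, chr5:28071162-28071461, plus strand: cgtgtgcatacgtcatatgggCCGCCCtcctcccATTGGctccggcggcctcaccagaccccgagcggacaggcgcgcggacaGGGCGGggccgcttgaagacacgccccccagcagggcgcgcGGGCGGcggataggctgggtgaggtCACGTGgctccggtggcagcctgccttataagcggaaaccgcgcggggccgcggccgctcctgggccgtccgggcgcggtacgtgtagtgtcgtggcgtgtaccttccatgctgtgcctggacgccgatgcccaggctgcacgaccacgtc
Cyp51, chr5:4104648-4104947, minus strand: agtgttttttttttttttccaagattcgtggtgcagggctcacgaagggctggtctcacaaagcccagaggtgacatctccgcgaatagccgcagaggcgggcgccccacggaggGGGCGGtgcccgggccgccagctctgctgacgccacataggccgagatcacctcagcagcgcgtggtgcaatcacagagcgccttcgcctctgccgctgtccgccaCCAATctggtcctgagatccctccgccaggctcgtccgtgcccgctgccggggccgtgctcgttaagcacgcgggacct
Ebp, chrX:8193463-8193762, minus strand: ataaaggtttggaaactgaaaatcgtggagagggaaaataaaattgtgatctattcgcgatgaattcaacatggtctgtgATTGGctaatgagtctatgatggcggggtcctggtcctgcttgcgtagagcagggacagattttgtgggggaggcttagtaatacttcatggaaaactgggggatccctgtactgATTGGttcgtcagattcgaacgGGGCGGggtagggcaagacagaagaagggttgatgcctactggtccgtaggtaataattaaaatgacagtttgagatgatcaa
Hadhb, chr5:30155003-30155302, plus strand: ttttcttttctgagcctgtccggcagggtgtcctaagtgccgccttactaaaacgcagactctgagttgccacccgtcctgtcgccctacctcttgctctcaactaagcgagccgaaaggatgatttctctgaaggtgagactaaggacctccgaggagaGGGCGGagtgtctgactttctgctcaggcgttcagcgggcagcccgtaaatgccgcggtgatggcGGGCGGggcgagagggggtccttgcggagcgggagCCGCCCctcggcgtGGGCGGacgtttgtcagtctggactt

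The 36 genes had 47 windows, since some have several starts. The sterol response element core stood in 1 of them (2.13%), against 1.24% of 32851 windows of all genes, and in Hmgcs1 it began 137 bases before the start as TCACCCCAC. The NF-Y box stood in 27 of the 47 windows (57.4%), against 37.4% of all windows. Among the 16 windows of sterol synthesis genes it stood in 13 (81.2%), and each of the 13 sterol genes with a window had it in at least 1. The GC box stood in 35 of the 47 (74.5%), against 35.7%, and the E-box in 8 (17.0%), against 7.15%. The windows of all genes were not limited to genes above the filter, and the overlapping windows of Hadha and Hadhb count separately. Whether these shares differ from those of other expressed genes was not tested. These matches describe exact letters in a window. A sterol response element with other letters, or outside the window, would not be found, so a window without the core is not shown to lack such an element. Hmgcs1 with the core differed by 0.12, while Insig1, without it in this window, differed by 1.08. No windows were matched for Fabp4, Fabp5, Fads1, Fdft1, Fdps, Lpl, Scd1, Scd2 and Sqle.

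Sterol synthesis enzymes were within 2-fold from the mevalonate steps to lanosterol at their brightest probe sets, and the differences past 2-fold were among the later steps. Of the 16 enzymes 2 were at least 2-fold higher (12.5%), 1 was lower (6.25%) and 13 lay between, against 16.5% higher and 8.41% lower of all genes. Their median log2 difference was 0.12, against 0.0005 over all genes above the filter. It was -0.26 when scaled on the hybridization controls and -0.0029 with the mean over probe sets. Hmgcs1, the synthase that makes HMG-CoA, had signals of 3059.9 at day 15 and 2809.7 in undifferentiated cells. Its 4 probe sets above the filter gave log2 differences of 0.11 to 0.24, a narrow range.

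The enzymes that turn mevalonate into isoprenoid units were within 2-fold in both directions. Mevalonate kinase gene Mvk measured 367 at day 15 and 278 in undifferentiated cells, and Pmvk, the next kinase, 269 at day 15 and 308 in undifferentiated cells. Mvd, the decarboxylase that ends this stretch, was lower, at 267 at day 15 and 410.5 in undifferentiated cells (1.54-fold). Idi1, the isomerase that interconverts the isoprenoid units, came nearest to the threshold from below, at 795 at day 15 and 1554 in undifferentiated cells (log2 difference -0.95). Its second probe set, however, read 775 at day 15 and 799 undifferentiated, a log2 difference of -0.04, so the lower signal was seen with 1 of its probe sets.

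The following condensation and squalene steps differed little. Fdps, which joins isoprenoid units into farnesyl diphosphate, had 2341 at day 15 and 1838 in undifferentiated cells. Fdft1, squalene synthase, had 1479 at day 15 and 1228 in undifferentiated cells. Sqle, squalene epoxidase and a slow step of the pathway, had 1516 at day 15 and 1619.8 in undifferentiated cells. All of these lay between -0.10 and 0.35 on the log2 scale. Lss, which closes the ring to lanosterol, was split by its probe sets: the brightest read 447 at day 15 and 411 in undifferentiated cells, and another above the filter 265 at day 15 and 62.7 in undifferentiated cells. Their log2 differences were 0.12 and 1.83, so whether Lss passed 2-fold depended on the probe set.

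After lanosterol the enzymes moved apart. Cyp51, the lanosterol demethylase, measured 1052 at day 15 and 466 in undifferentiated cells (2.26-fold higher), and its second probe set above the filter 476 at day 15 and 269 in undifferentiated cells (log2 difference 0.79). Tm7sf2, a sterol reductase, measured 179 at day 15 and 103 in undifferentiated cells, a log2 difference of 0.71. Nsdhl and Hsd17b7 are among the enzymes that work together to strip methyl groups from the ring, and they differed from each other. Nsdhl, the dehydrogenase, had 1019.6 at day 15 and 1000.5 in undifferentiated cells (log2 difference 0.03). Hsd17b7, the ketoreductase beside it, had 333 at day 15 and 95.7 in undifferentiated cells, 3.48-fold higher. Of the 3 Hsd17b7 probe sets above the filter, another was higher (231 at day 15 and 93.4 undifferentiated) and the third lower (44.6 and 88.4), so this gene is uncertain.

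Ebp was the 1 gene of the 42 that was at least 2-fold lower. It encodes the sterol isomerase that shifts a ring double bond, and its single probe set measured 718 at day 15 and 2445 in undifferentiated cells, 3.41-fold lower (log2 difference -1.75). The lower call held under all 8 other processing settings, at -2.13 to -1.68. With a single bright probe set, however, the filter, averaging and suffix settings could not change its value. Sc5d, the desaturase that acts next, went the other way at 298 at day 15 and 146 in undifferentiated cells. Its signal ratio was 2.04, and its log2 difference of 0.96 was just short of the threshold. Dhcr7, the reductase that finishes cholesterol, had 317 at day 15 and 392 in undifferentiated cells.

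Both X-linked genes of the list act in this late stretch. The stated aim of the study was X-chromosome expression as female cells pass from 2 active X chromosomes to 1. Ebp was 3.41-fold lower at day 15, while Nsdhl was level, at a log2 difference of 0.03. Among related genes outside the list, the X-linked Mbtps2, whose protease cuts SREBPs free, measured 706 at day 15 and 1021 in undifferentiated cells (log2 difference -0.52), and the X-linked Acsl4, which activates long fatty acids, 1117 at day 15 and 1068 in undifferentiated cells (0.06). Mbtps2 and Acsl4 were named for their chromosome. These 4 X-linked lipid genes covered a range from -1.75 to 0.06, and 1 of them was past 2-fold lower, as were 8.41% of all genes. The autosomal genes of sterol synthesis ranged from -0.95 (Idi1) to 1.64 (Hsd17b7). The part of the number of active X chromosomes in these values was not tested.

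**Figure D2:**
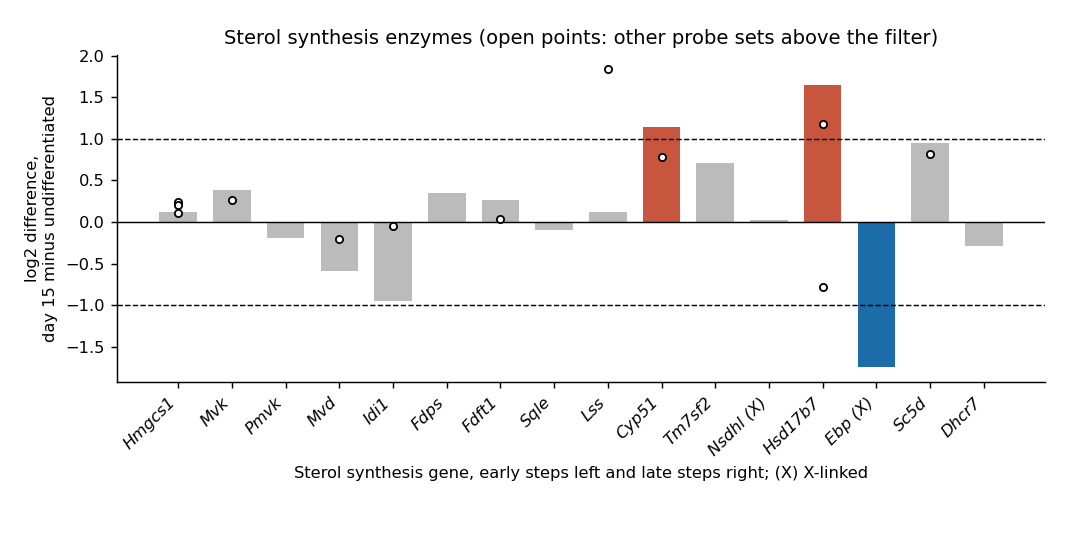
Log2 difference, day 15 minus undifferentiated, of the 16 sterol synthesis genes in pathway order, with dashed lines at 2-fold. Cyp51 and Hsd17b7 pass the upper line and Ebp the lower, while open points, other probe sets above the filter, show where Lss, Hsd17b7 and Idi1 differ between probe sets.

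In fatty acid synthesis 3 of the list's 4 desaturase genes (Scd1, Scd2 and Fads1) and the elongase gene Elovl1 were at least 2-fold higher at day 15. The enzymes that build the chain were level or lower within 2-fold. The higher genes were 4 of 10 (40.0%), with 0 lower, against 16.5% higher and 8.41% lower of all genes. The median of the 10 was 0.31. It was -0.068 when scaled on the hybridization controls, where Scd1 (0.91) and Fads1 (0.97) were within 2-fold. ATP citrate lyase, gene Acly, which supplies cytosolic acetyl-CoA, measured 2784 at day 15 and 4209 in undifferentiated cells (1.51-fold lower). Its other probe sets above the filter were also lower, at log2 differences of -0.19 and -0.89. Acaca, the carboxylase that makes malonyl-CoA, had 276 at day 15 and 279.9 in undifferentiated cells, and Fasn, fatty acid synthase, 1704 at day 15 and 2427 in undifferentiated cells (1.42-fold lower). No gene of these first steps passed 2-fold.

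Stearoyl-CoA desaturases place the first double bond in a saturated chain. Scd2, a form made in mouse brain and in early life, measured 9610.3 at day 15 and 2668 in undifferentiated cells, 3.60-fold higher, and its second probe set above the filter 3169.9 at day 15 and 659 in undifferentiated cells. Scd1, the form of mouse liver and fat, measured 1346 at day 15 and 540.3 in undifferentiated cells, 2.49-fold higher, and its second probe set 306 at day 15 and 172 in undifferentiated cells, a log2 difference of 0.78. Both Scd2 probe sets above the filter and the brighter Scd1 probe set were thus past 2-fold.

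Of the desaturases of polyunsaturated fats, Fads1 passed 2-fold at its brightest probe set and Fads2 did not. Fads1, the enzyme of the later desaturation, had 1386 at day 15 and 532 in undifferentiated cells (2.61-fold higher), but a dim probe set of the gene read 38.0 at day 15 and 47.8 in undifferentiated cells, near the bound. Fads2, the enzyme of the first desaturation, had 495 at day 15 and 321 in undifferentiated cells (log2 difference 0.60) and, with another probe set, 394 at day 15 and 157 in undifferentiated cells (1.24). Fads1 and Fads2 are direct neighbours on chromosome 19, and Scd1 and Scd2 lie on the same chromosome with 1 protein-coding gene between them.

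The elongases did not move alike. Elovl1, which extends saturated and monounsaturated chains to very long ones, measured 1334 at day 15 and 292 in undifferentiated cells (4.56-fold higher), and its 3 probe sets above the filter gave 1.97 to 2.13 on the log2 scale. Elovl5, which extends polyunsaturated chains, had 1799.7 at day 15 and 1815 in undifferentiated cells. Elovl6, which extends palmitate to stearate, had 829.8 at day 15 and 816 in undifferentiated cells. Elovl5 and Elovl6 were within 1.02-fold of their undifferentiated signal, and the other probe sets of both above the filter lay between -0.10 and -0.07.

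Of the genes for uptake, binding and efflux, Lpl and Fabp5 were higher, Abca1 was within 2-fold, and Cd36 and Fabp4 lay below the measurable bound at the probe sets that represent them. Lpl, the lipase that frees fatty acids from lipoproteins outside the cell, measured 1025 at day 15 and 187 in undifferentiated cells and, with its second probe set, 403 at day 15 and 67.0 in undifferentiated cells. It was 5.48-fold higher, the highest log2 difference of the 42 genes (2.36), and both probe sets gave nearly the same difference. Fabp5, a fatty acid carrier first known from skin, had 6619 at day 15 and 2365 in undifferentiated cells (2.80-fold higher), with 2303 at day 15 and 681 in undifferentiated cells at its other probe set.

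Cd36, a fatty acid receptor of muscle, fat and macrophages, had 31.9 at day 15 and 8.3 in undifferentiated cells, both below the bound of 35.6, so no fold is given. Fabp4, the carrier of fat cells, macrophages and endothelium, had 29.4 at day 15 and 8.5 in undifferentiated cells at the probe set that represents it, again below the bound. Another of its 4 probe sets read 39.7 at day 15 and 3.8 undifferentiated, at least 1.12-fold higher. Abca1, which exports cholesterol, measured 462 at day 15 and 565 in undifferentiated cells, and its second probe set above the filter had the opposite sign (0.30), both within 2-fold.

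Markers of cell types known for these genes were uneven. Of 8 adipocyte markers 5 were measured, with a summed signal of 215 at day 15 and 155.8 undifferentiated. Adipoq, Cidec and Lep lay below 35.6 on both arrays, and Slc2a4 was the 1 marker past 2-fold (133 at day 15 and 57.2 undifferentiated). Of 8 macrophage markers 2 were at least 2-fold higher, Csf1r and Tyrobp, and the sum was 828 at day 15 and 471 undifferentiated. Cd68 went the other way, at 118 at day 15 and 239 undifferentiated (log2 difference -0.92). Of 3 Csf1r probe sets 1 was within 2-fold, at 152 at day 15 and 111 in undifferentiated cells. Ptprc, the general leukocyte antigen, lay below 35.6 on both arrays. Of 7 endothelial markers 2 were at least 2-fold lower, Pecam1 and Esam, and the sum was 445 at day 15 and 679.8 undifferentiated. Kdr went the other way within 2-fold by the call (105 at day 15 and 50.8 undifferentiated), as did Cdh5 below the filter (45.5 at day 15 and 11.7 undifferentiated). Tek and Emcn were within 2-fold, and Tie1 lay below 35.6 on both arrays. Of 9 visceral endoderm and hepatocyte markers 3 were higher, Afp, Ttr and Rbp4, and the sum was 2367 at day 15 and 422 undifferentiated. Amn (72.0 at day 15 and 154 undifferentiated) and Apom (67.3 at day 15 and 120 undifferentiated) were lower within 2-fold by the call. Apoa1, below the filter, was higher (90.1 at day 15 and 4.5 undifferentiated). Of 8 cardiac muscle markers 2 were higher, Tnnt2 and Actc1, and the sum was 2217 at day 15 and 407 undifferentiated. Most of the day 15 sum came from Tnnt2 (1229) and Actc1 (463). Myh6, Myh7, Myl2, Nkx2-5 and Myl7 were within 2-fold by the call, at log2 differences of 0.31 (Myh6) to 0.96 (Myl7). Tnni3 lay below 35.6 on both arrays. No marker of these lists was at 0 on either array, and their part in the values of Lpl and Fabp5 was not tested.

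None of the 7 genes of mitochondrial fatty acid oxidation was called past 2-fold in either direction at its brightest probe set. Of all genes above the filter 16.5% were higher and 8.41% lower, and with so few genes in the route these shares are not told apart from none. The median of the route was 0.44, against 0.0005 over all genes above the filter. It was below 0 with the mean over probe sets (-0.041) and with suffixes a, s and x left out (-0.13). Cpt1a, the gate for entry of long chains into mitochondria, measured 462 at day 15 and 337 in undifferentiated cells (log2 difference 0.44). Its other probe sets above the filter read 273 at day 15 and 62.3 in undifferentiated cells, and 130.2 at day 15 and 32.6 in undifferentiated cells. Those differed by 1.88 and 1.59, so 2 of 3 Cpt1a probe sets were past 2-fold. With the mean over its probe sets Cpt1a was called higher (1.30). Cpt2, its partner on the inner membrane, had 238 at day 15 and 281 in undifferentiated cells, and both its probe sets gave -0.22.

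The acyl-CoA dehydrogenases, which take the first step of each oxidation cycle, were called within 2-fold. Acadvl, for very long chains, had 620.1 at day 15 and 308 in undifferentiated cells (2.01-fold, log2 difference 0.97). Acadl, for long chains, had 800 at day 15 and 409 in undifferentiated cells (log2 difference 0.94). Acadm, for medium chains, had 1347 at day 15 and 2052 in undifferentiated cells (-0.60), and Acads, for short chains, outside the list and named after its values were seen, 520 at day 15 and 554 in undifferentiated cells (-0.09). Of the 42 genes of the list above the filter, Acadvl, Sc5d and Acadl were the closest below the upper threshold, and Insig1 (1.08) and Cyp51 (1.15) the closest above it.

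Hadha and Hadhb encode the subunits of the trifunctional protein that completes the cycle, and they start back to back on chromosome 5, with 228 of 300 bases of their promoter windows in common. Hadha had 1078 at day 15 and 1184 in undifferentiated cells. Hadhb had 2554 at day 15 and 1841 in undifferentiated cells at its brightest probe set and 1479 at day 15 and 1706 in undifferentiated cells at another. Their log2 differences were -0.13 for Hadha, and 0.47 and -0.20 for Hadhb, all within 2-fold and, for Hadhb, of opposite sign.

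**Figure D3:**
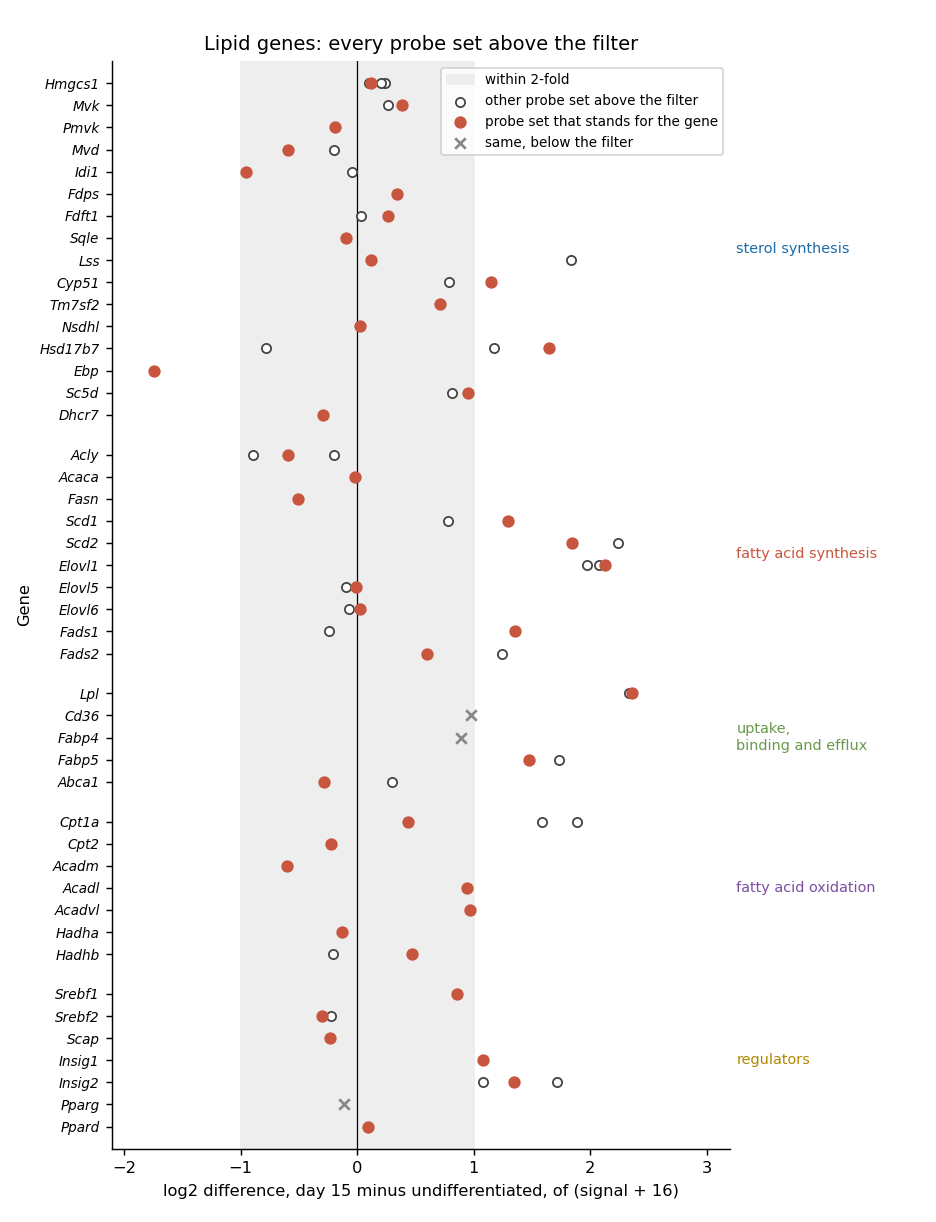
Log2 difference, day 15 minus undifferentiated, of every probe set above the filter for the 45 genes, with the grey band within 2-fold. Probe sets of Lpl, Elovl1 and Hmgcs1 lie close together, and those of Hsd17b7, Lss, Fads1 and Cpt1a lie more than 1 log2 unit apart.

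Probe sets therefore limited some of the calls. Of the 42 genes, 25 had several probe sets past the filter, and in 5 of these (Hsd17b7, Fads1, Elovl6, Abca1 and Hadhb) they had opposite directions. In 7 genes (Cyp51, Hsd17b7, Lss, Scd1, Fads1, Fads2 and Cpt1a) some probe sets passed 2-fold and others did not. Scd2, Elovl1, Lpl, Fabp5 and Insig2 were past 2-fold with each of their probe sets above the filter.

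Among the regulators, both Insig genes were higher at day 15 while Srebf1, Srebf2 and Scap lay within 2-fold. Insig1, itself a target of SREBPs, measured 952 at day 15 and 443 in undifferentiated cells (2.15-fold higher). Insig2, its paralog, measured 810.5 at day 15 and 309.8 in undifferentiated cells (2.62-fold higher), and its 3 probe sets gave 1.08 to 1.72 on the log2 scale. Srebf1, whose product favours fatty acid genes, had 798 at day 15 and 434 in undifferentiated cells, a log2 difference of 0.86. Srebf2, whose product favours sterol genes, had 393 at day 15 and 488 in undifferentiated cells (-0.30), and Scap had 404 at day 15 and 478 in undifferentiated cells (-0.24).

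Of the PPAR receptors, which sense fatty acids, Ppard was measurable. Pparg, the receptor of fat cells, had 13.4 at day 15 and 15.7 in undifferentiated cells, below the bound on both arrays. Ppard, the broadly made form, had 148 at day 15 and 138 in undifferentiated cells, within 2-fold.

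Other genes of lipid metabolism were read from 6 lists with 105 genes, of which 94 were measured and 77 lay above the filter. Called at least 2-fold higher were 16 and lower 3, against the shares of 16.5% and 8.41% of all genes given above. The 3 genes above the filter with the largest absolute difference of each list are named, and Slc27a2 and Angptl4 were named after their values were seen. Of 14 genes of sterol synthesis and handling 3 were higher: Ch25h, which makes hydroxycholesterol (239 at day 15 and 39.4 in undifferentiated cells), the lysosomal lipase gene Lipa (378 at day 15 and 114 in undifferentiated cells) and the HDL receptor gene Scarb1 (768 at day 15 and 356 in undifferentiated cells). A further Lipa probe set was also higher, and another was within 2-fold at 78.4 at day 15 and 51.1 in undifferentiated cells. The median of the list was 0.62, with 0 lower.

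Of 18 further genes of fatty acid synthesis and activation 2 were higher and 1 lower. Malic enzyme gene Me1, a source of NADPH, had 1678 at day 15 and 549 in undifferentiated cells. Hacd1, a dehydratase of elongation, had 1769 at day 15 and 581 in undifferentiated cells. Acacb, the carboxylase form of muscle and liver mitochondria, had 68.8 at day 15 and 199 in undifferentiated cells (2.90-fold lower). Me1 and Hacd1 were thus higher and Acacb lower, while the median of the list was -0.14.

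The uptake and binding list held the largest differences in both directions, with 3 of 9 higher and 2 lower. Caveolin gene Cav1, a coat protein of caveolae, had 3803 at day 15 and 62.8 in undifferentiated cells (60.6-fold higher). Vldlr, a lipoprotein receptor, had 498 at day 15 and 26.8 in undifferentiated cells (at least 13.98-fold). Lrp1, another receptor of that family, had 901 at day 15 and 110.3 in undifferentiated cells (8.17-fold). Cav1 and Lrp1 are also made by fibroblasts, whose markers are given above. Slc27a2, an activating transporter of very long chains, was lower at 139 at day 15 and 717 in undifferentiated cells (5.16-fold), as was Angptl4, an inhibitor of lipoprotein lipase, at 96.0 at day 15 and 371 in undifferentiated cells (3.86-fold). A second Angptl4 probe set lay below the bound on both arrays, at 8.9 at day 15 and 7.1 in undifferentiated cells. Lpl was thus higher and Angptl4 lower at its brighter probe set, and a link between the 2 was not tested.

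In the storage list 2 of 11 genes were higher and 0 lower. The lipid droplet coat gene Plin2 had 1878 at day 15 and 293 in undifferentiated cells (6.41-fold), and the monoglyceride lipase gene Mgll 188 at day 15 and 73.3 in undifferentiated cells. Lpin2, a phosphatidate phosphatase, had 274 at day 15 and 142 in undifferentiated cells, within 2-fold. Of 17 further oxidation genes 3 were higher and 0 lower. Decr1, needed for unsaturated chains, had 877 at day 15 and 236 in undifferentiated cells, and at a dimmer probe set 61.7 at day 15 and 31.1 in undifferentiated cells, within 2-fold. The mitochondrial thioesterase gene Acot2 had 518 at day 15 and 164 in undifferentiated cells, with a dim second probe set of opposite direction (43.4 at day 15 and 52.3 in undifferentiated cells). Cpt1c, a form of Cpt1a best known from neurons, had 1122 at day 15 and 376 in undifferentiated cells. The other 14 genes were within 2-fold, and the share of higher genes was near that of all genes.

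Of 8 further regulators 3 were called higher and 0 lower. Cebpb, a factor that acts early in fat cell formation, had 944 at day 15 and 279.7 in undifferentiated cells. Prkaa2, a catalytic subunit of the energy sensor AMPK, had 314 at day 15 and 117 in undifferentiated cells. The coactivator gene Ppargc1b had 65.7 at day 15 and 22.5 in undifferentiated cells, at least 1.85-fold higher. Its call thus rests on a signal below the bound, and a 2-fold difference was not established.

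**Figure D4:**
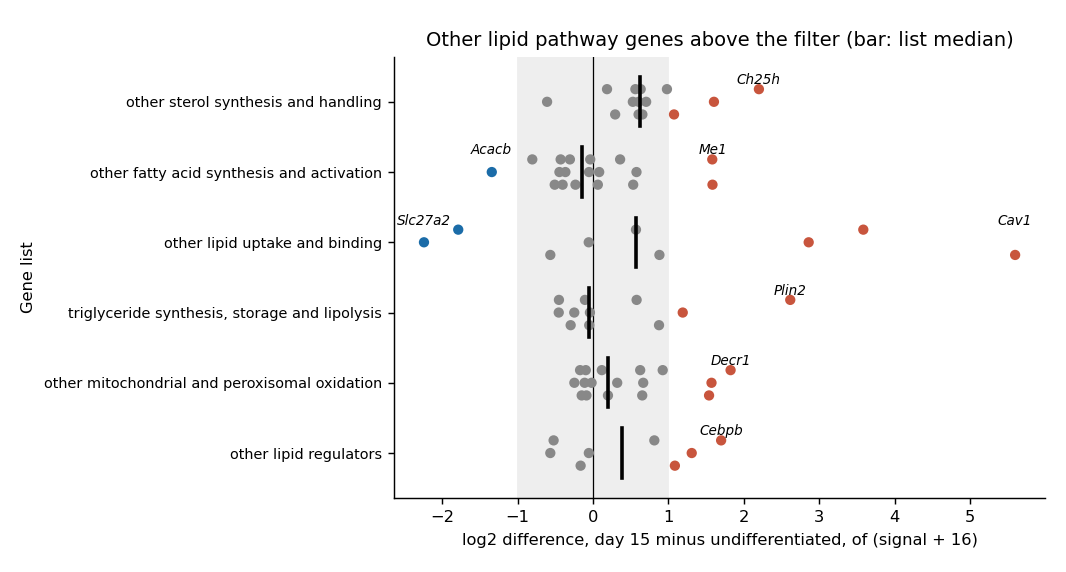
Log2 difference, day 15 minus undifferentiated, of the 77 genes above the filter in 6 further lipid lists, with the grey band within 2-fold and a bar at each list's median. The points outside the band are 16 to the right and 3 to the left, with Cav1 at 5.60 and Slc27a2 at -2.24 as the extremes.

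The choice of processing moved some of the 11 calls. Ebp, Scd2, Elovl1, Lpl and Fabp5 stayed past 2-fold under each of the 8 other settings in which they were measured (7 for Elovl1, whose probe sets all carry the suffix a or x and so may match several transcripts). For Ebp, with a single probe set, the filter, averaging and suffix settings left the value at -1.75. Cyp51 was at 0.76 and Insig1 at 0.69 when scaled on the hybridization controls, and Scd1 (0.91), Insig2 (0.96) and Fads1 (0.97) lay just under the threshold there too. With the mean over all probe sets Hsd17b7 was at 0.54, Fads1 at 0.56 and Cyp51 at 0.83, all within 2-fold.

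**Figure D5:**
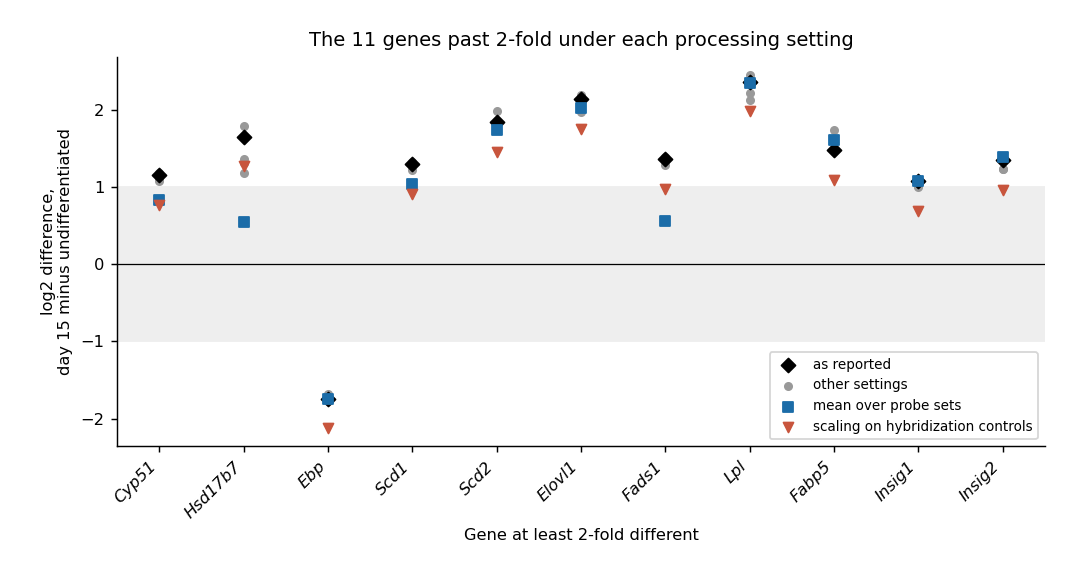
Log2 difference, day 15 minus undifferentiated, of the 11 genes past 2-fold as reported (black) and under 8 other settings, with the grey band within 2-fold. Scaling on hybridization controls (triangles) lowers each value by about 0.39 and brings 5 genes into the band, and the mean over probe sets (squares) brings in Cyp51, Hsd17b7 and Fads1.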

How the data were processed

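Total RNA was labelled as biotinylated cRNA and hybridised to Affymetrix arrays, per the labels' protocols. The authors deposited linear signal intensity values of 45101 probe sets on each array. The software and background correction are not given in the sources used here, and equal means after trimming 2% from each tail (250) show a common scaling. The number of arrays limits the precision.

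The 64 control probe sets were set aside. The platform annotation named 1 gene for 34945 probe sets and several for 932, which were not used. Symbols and chromosomes came from the RefSeq table (GRCm38.p6), as did promoter windows, matched for 36 of 45 genes by symbol. Signals were taken to log2(signal + 16), a pseudocount that understates the differences of dim genes. Calls used a difference of 1 and a filter at the median, and were recomputed under 8 alternatives in Python 3.11.15 with pandas 2.3.3. They were also tried on simulated data in which all planted changes were larger than the threshold. Differences near the threshold were not tested that way. The genes named were all 45, the 3 above the filter with the largest absolute difference in each further list, and the markers that place a list; others are marked in the text. The members and lists were chosen with earlier results of these data known. No protein comparison was run.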

Additional observations from a re-analysis of the deposited data

Results flagged for a closer look

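Bacterial control transcripts outside the gene measurements were seen on 1 array each. The 6 Lys probe sets read 5124 to 11559.9 at day 15 and 0.4 to 15.3 in undifferentiated cells, and the 6 Dap probe sets read 0.4 to 18.1 at day 15 and 4158 to 15243 in undifferentiated cells. Neither set entered the lipid gene values.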

How the results depend on the processing

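The 8 alternatives were no filter, a stricter filter (75th percentile), averaging the probe sets of a gene, leaving out suffix a, s and x, pseudocounts of 1 and 64, quantile normalization and scaling on the hybridization controls. No paired analysis was possible because each condition has 1 array. Members at least 2-fold higher numbered 9 to 12 under 7 alternatives, with 1 lower. The 12 were at pseudocount 1, where Sc5d and Acadvl were also called. The genes called were not the same under all of these. Averaging left out Cyp51, Hsd17b7 and Fads1 and brought in Fads2 (1.37) and Cpt1a (1.30). Leaving out suffixes brought in Lss (1.83) and left Elovl1 unmeasured, and the stricter filter left out Hsd17b7. Under scaling on the hybridization controls 5 were higher and 2 lower, with Idi1 joining Ebp. That scaling moved the median of all genes by -0.36, quantile normalization by -0.13. It brought 7 members from above to below 0, and turned the medians of sterol synthesis (-0.26) and fatty acid synthesis (-0.068). Averaging turned those of sterol synthesis (-0.0029) and fatty acid oxidation (-0.041), and leaving out suffixes turned that of fatty acid oxidation (-0.13). The direction of these 3 route medians thus depended on the setting. Of the further lipid genes, 10 were higher with the stricter filter, which tests fewer genes, and lower genes numbered 5 without a filter, 1 with the stricter filter and 1 with averaging, where the cause was not tested (the counts over the further lists were added after seeing the data). Signals under 35.6 cannot be told from controls without target, which limits Cd36, Fabp4 and Pparg.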

Other observations

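The control probe sets for the ends of 2 abundant transcripts give the RNA state of each sample. The ratio of the 3′ to the 5′ signal of Actb was 1.72 at day 15 and 2.34 in undifferentiated cells, and that of Gapdh was 0.817 at day 15 and 0.815 in undifferentiated cells. Their part in the lipid gene values was not tested.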
